A study of Mus musculus with 6 samples.

Results

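Tumor macrophages that carried transcripts of the matrix metalloproteinases Mmp12 and Mmp13 or of the hypoxia gene Hilpda were examined among CD45+ cells of B16-F10 melanomas, a mouse melanoma line grown in C57BL/6 mice. Cells were chosen by UMI counts, where a UMI (unique molecular identifier) marks an RNA molecule captured in a barcoded droplet. A barcode needed 600 to 4000 detected genes, at most 10% mitochondrial UMIs, at least 2 UMIs summed over the macrophage genes C1qa, C1qb, C1qc, Adgre1 and Csf1r, and at least 3 UMIs summed over Mmp12, Mmp13 and Hilpda. It could hold at most 1 UMI of Ppbp and Ccl24 and at most 2 UMIs of Lyve1, Folr2 and Fcna, which mark other macrophage states, and 0 UMIs of the T cell genes Cd3d, Cd3e and Cd3g and of the B cell genes Cd79a, Cd79b and Ms4a1. This rule found 1129 cells, called gated macrophages here, out of 9774 barcodes that met the filters, the macrophage criterion and the T and B cell criteria (C1q-positive macrophages). The 6 samples together held 30067 barcodes past the cell filters and 52899 deposited barcodes.

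Both groups consisted of tumors from female C57BL/6 mice aged 6 to 10 weeks, and all mice received αPD-1, an antibody against the T cell checkpoint receptor PD-1, at 150 µg 3 times a week from day 7. The αPD-1 + corin group (3 samples) also received corin, an inhibitor of the LSD1 and HDAC1 enzymes of the CoREST corepressor complex, at 200 µg daily by intraperitoneal injection from day 6, and the αPD-1 group (3 samples) did not, with no label stating whether it received the vehicle. With 10 mice in each arm and no label that ties a sample to a mouse, the tests measure the spread between samples. Tumors were dissociated with enzymes, frozen, thawed, depleted of dead cells and enriched for CD45 before capture. The comparison addressed whether the number and the transcripts of these macrophages differed when corin was added to αPD-1.

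The gated macrophages numbered 117, 86 and 83 in αPD-1 replicates 1, 2 and 3 and 456, 224 and 163 in αPD-1 + corin replicates 1, 2 and 3. Another 5482 C1q-positive macrophages, called other macrophages here, met every criterion except that they held at most 2 UMIs of the 3 genes. Gated macrophages had a median of 3418 to 5621 UMIs per cell across samples, and other macrophages 2620 to 4331, with the gated median higher in each sample. Since the rule counted raw UMIs, deeper barcodes were more likely to reach it. Pairs of samples shared 10 to 32 deposited barcode sequences, and 0 of these were gated in both.

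Cells in low oxygen stabilize the transcription factor HIF, which binds short DNA elements with the core ACGTG or GCGTG and raises transcription of genes for glucose uptake, glycolysis, angiogenesis and lipid droplets. Hilpda is such a gene, and its product slows the breakdown of stored fat. Mmp12 encodes macrophage elastase and Mmp13 a collagenase, and transcription of several metalloproteinase genes is known to depend on AP-1, a dimer of Fos and Jun proteins that binds TGACTCA and its reverse complement TGAGTCA. Spp1 encodes osteopontin, a secreted matrix protein abundant in many tumor macrophages, Hmox1 encodes heme oxygenase 1, and Ndrg1 is a widely used marker of hypoxia.

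The start-proximal sequences of the 3 genes that chose the cells are shown for the elements in them. They were taken from RefSeq (mouse build GRCm38.p6, plus strand), end 1 base before the annotated start, and have the matched letters in capitals.
Mmp13 chr9:7272434-7272513: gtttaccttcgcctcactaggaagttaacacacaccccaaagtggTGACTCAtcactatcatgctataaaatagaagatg
Mmp12 chr9:7347294-7347373: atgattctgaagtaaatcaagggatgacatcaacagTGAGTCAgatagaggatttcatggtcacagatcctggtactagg
Hilpda chr6:29272506-29272625: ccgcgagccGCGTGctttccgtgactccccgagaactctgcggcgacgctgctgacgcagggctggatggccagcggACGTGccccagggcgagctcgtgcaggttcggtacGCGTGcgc

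Promoters were searched on both strands from 250 bases before to 50 bases after each start. The single Mmp13 promoter and 1 of 2 Mmp12 promoters held the AP-1 element, against 5.20% of 32851 RefSeq promoters, and none of these 3 held a HIF core. Both Hilpda promoters held a HIF core, ACGTG or GCGTG, and neither held the AP-1 element. A HIF core was common, since 43.8% of all promoters held one. At least 1 promoter held it in 21 of 21 genes of the hypoxia list with an entry, 14 of 16 glycolysis genes and 9 of 17 genes of the metalloproteinase list, of which 3 held AP-1. Genes with several promoters had more chances to hold a motif than the single promoters behind the share. Neither motif was found in the 2 Spp1 promoters. These matches are descriptions of letters in a window, and no binding was measured.

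The metalloproteinases and Hilpda did not mark a single uniform set of cells. Of the 1129 gated macrophages, 535 held UMIs of Hilpda together with Mmp12 or Mmp13, 432 held at least 3 UMIs of Hilpda and none of either metalloproteinase, and 162 held at least 3 metalloproteinase UMIs and none of Hilpda. Mmp12 was detected in 619 cells, Mmp13 in 261 and Hilpda in 967. The label of Mmp12 Mmp13 macrophages therefore described the class as a sum, and 38.3% of its cells held neither enzyme's transcript at this depth. Cells with exactly 3 UMIs numbered 276, and 420 macrophages lay just outside with 2 UMIs.

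Levels are given on the counts-per-million scale (CPM), in which a gene's UMIs are divided by all UMIs of the class in a sample. Mmp12 in gated macrophages was at 1499, 630 and 1546 CPM in the αPD-1 samples and at 1011, 885 and 798 CPM in the αPD-1 + corin samples. In other macrophages of the same samples Mmp12 lay between 4.45 and 16.9 CPM. Mmp13 was at 122, 167 and 160 CPM with αPD-1 and at 193, 126 and 130 CPM with αPD-1 + corin. Hilpda was at 761, 636 and 611 CPM with αPD-1 and at 829, 627 and 673 CPM with αPD-1 + corin. The treatment groups overlapped for each of these genes, and the distance from other macrophages was set by the rule.

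The other markers were not part of the rule's sums, but they were measured in the cells it selected and are given as a description. Ndrg1 was at 468, 347 and 347 CPM in gated macrophages with αPD-1 and at 453, 468 and 298 CPM with αPD-1 + corin, against 53.4 to 126 CPM in other macrophages. Spp1 was at 2879, 1615 and 2990 CPM with αPD-1 and at 3256, 1975 and 778 CPM with αPD-1 + corin, and at 308 to 1424 CPM in other macrophages. Spp1 was thus the most variable of the 3, with αPD-1 + corin replicate 3 lowest in both classes. Hmox1 was at 2568, 2089 and 851 CPM with αPD-1 and at 1868, 1156 and 864 CPM with αPD-1 + corin, against 441 to 845 CPM in other macrophages. Ndrg1, Spp1 and Hmox1 were higher in the gated than in the other macrophages in 6 of 6 samples.

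**Figure D1:**
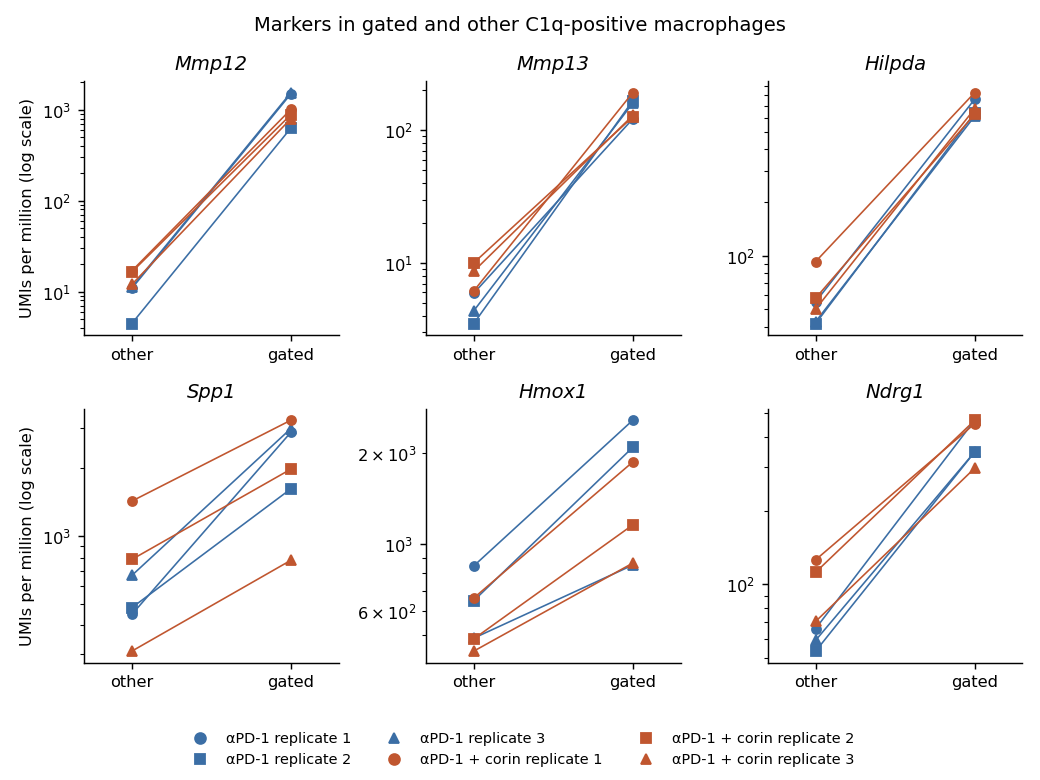
Levels of the 6 marker genes in CPM (log scale) in other and gated C1q-positive macrophages, with a line joining the classes of each sample (blue for αPD-1, orange for αPD-1 + corin). Mmp12, Mmp13 and Hilpda, which chose the cells, separate by construction, and Spp1, Hmox1 and Ndrg1 are higher in the gated class in each of the 6 samples. The treatment groups overlap in the gated class for each gene, while in other macrophages Ndrg1 and Mmp12 do not overlap.

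For shares of cells with a UMI, all cells were first thinned to a depth of 1000 UMIs. Mmp12 was detected in 26.4% to 47.0% of gated macrophages across samples, and unthinned in 43.0% to 62.7%. In T cells, which should lack Mmp12 and had a median depth of 2184 to 3907 UMIs, the thinned share was 0% to 1.44%, and in B cells (median depth 1360 to 1977 UMIs) it was 0% to 0.642%. The T and B cell shares are read as the background of free RNA. The other macrophages were at 0.299% to 1.79% for Mmp12. By the rule they held at most 2 UMIs of Mmp12, Mmp13 and Hilpda together, a limit that T and B cells did not have. Their Mmp12 and Hilpda shares are therefore bounded and are not a like comparison with T and B cells. Hilpda was detected in 42.2% to 55.7% of gated macrophages, 4.47% to 9.81% of other macrophages and 3.13% to 11.96% of T cells after thinning. Unthinned, Hilpda was detected in 16.9%, 15.2% and 13.5% of other macrophages with αPD-1, against 11.7%, 11.5% and 9.32% of T cells. With αPD-1 + corin these shares were 23.3%, 23.4% and 15.3% of other macrophages and 28.4%, 30.5% and 21.2% of T cells. The order thus differed between the groups, but only the other macrophages were bounded by the rule. Spp1 was detected in 27.6% to 57.9% of gated macrophages after thinning and in 1.34% to 17.2% of T cells, with the highest T cell shares in αPD-1 + corin replicates 1 and 2.

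Values were compared just inside and just outside the threshold of the rule. The summed hypoxia list had a median over samples of 4350 CPM in gated cells with exactly 3 UMIs and 3472 CPM in macrophages with exactly 2, and Ndrg1 had medians of 312 and 161 CPM. Both were higher at 3 UMIs in 6 of 6 samples. Spp1, with medians of 1928 and 1146 CPM, was higher at 3 UMIs in 3 of 6 samples, and Hmox1, with medians of 1077 and 801 CPM, in 4 of 6. Arg1 had medians of 969 and 1044 CPM and was lower at 3 UMIs in the 3 αPD-1 samples and higher in the 3 αPD-1 + corin samples. No test was made on either side of the threshold.

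The share of gated macrophages among C1q-positive macrophages did not separate the treatments. It was 15.0%, 9.99% and 11.7% with αPD-1 and 9.82%, 15.1% and 12.6% with αPD-1 + corin, so the groups overlapped. The means were 12.2% ± 2.56 (SD, n = 3) and 12.5% ± 2.62 (SD, n = 3), a difference of 0.261 percentage points (two-sided exact permutation test, p = 0.9, adjusted p = 0.9 over 6 comparisons of shares). With 3 samples against 3 this test cannot give a p below 0.1.

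Among all barcodes past the filters the gated macrophages made up 2.62%, 2.29% and 1.88% with αPD-1 and 5.49%, 5.37% and 3.31% with αPD-1 + corin. Each αPD-1 + corin sample was above each αPD-1 sample, but with at least 6 UMIs of the rule genes, with Mmp12 and Mmp13 alone and after thinning to 2000 UMIs the groups overlapped (exact p = 0.2 each), and the difference in means, 2.46 percentage points, was 0.959, 0.877 and 1.23 points. The means were 2.26% ± 0.373 and 4.72% ± 1.23 (SD, n = 3 each), with the smallest p the exact test allows, 0.1 (adjusted p = 0.3). C1q-positive macrophages of all kinds moved with this share, at 17.4%, 22.9% and 16.0% of barcodes with αPD-1 and 55.9%, 35.6% and 26.2% with αPD-1 + corin (p = 0.1, exact permutation test). A CD45-enriched library gives shares and not numbers of cells per tumor, so more macrophages and fewer of the other cells cannot be told apart. The filters kept 4465, 3763 and 4424 of 6788, 6433 and 7000 deposited barcodes with αPD-1. With αPD-1 + corin they kept 8310, 4174 and 4931 of 13228, 9813 and 9637. The share of gated macrophages among deposited barcodes was not tested.

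The macrophage states left out by the rule differed widely between the αPD-1 + corin samples. Macrophages above the Lyve1, Folr2 and Fcna limit were 13.6%, 11.03% and 7.32% of C1q-positive macrophages with αPD-1 and 38.9%, 24.9% and 9.51% with αPD-1 + corin. Those above the Ppbp and Ccl24 limit only were 1.67%, 1.28% and 1.83% with αPD-1 and 8.81%, 10.8% and 0.309% with αPD-1 + corin. Cells above both limits were counted in the Lyve1, Folr2 and Fcna set. In these sets, 318 and 139 barcodes held at least 3 UMIs of Mmp12, Mmp13 and Hilpda. Among macrophages below both limits, a denominator chosen after the data were seen, gated cells were 17.7%, 11.4% and 12.9% with αPD-1 and 18.8%, 23.4% and 14.0% with αPD-1 + corin (p = 0.2, exact permutation test).

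**Figure D2:**
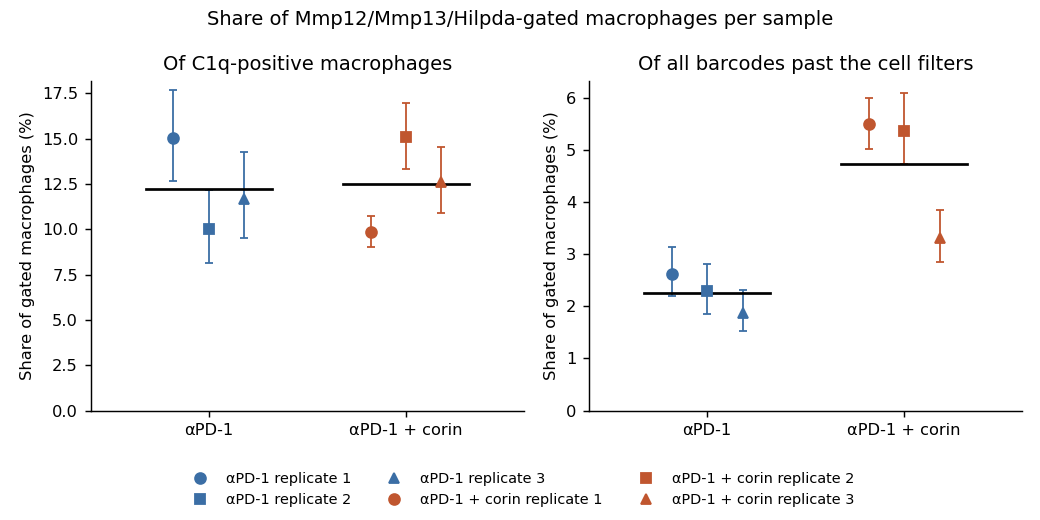
Percentage of gated macrophages per sample among C1q-positive macrophages (left) and among all barcodes past the cell filters (right), with 95% Wilson intervals that cover counting error only and a black line at each group mean. The groups overlap on the left around 12.2% and 12.5%, and on the right the αPD-1 + corin samples (3.31% to 5.49%) lie above the αPD-1 samples (1.88% to 2.62%).

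The 3 ways into the class differed in their other transcripts, in every case as a description of cells split by rule genes. The summed hypoxia list, which holds neither Hilpda nor the metalloproteinases, increased from the metalloproteinase-only cells through the cells with both to the Hilpda-only cells in each of the 6 samples. In αPD-1 replicate 1 the sums were 4559, 5607 and 7106 CPM, and in αPD-1 + corin replicate 3, the lowest sample, they were 1914, 3951 and 4645 CPM. Metalloproteinase-only cells were still above the other macrophages of their sample in each case, where the sums were 1780 to 2593 CPM. Vegfa, the main angiogenic growth factor, had medians over samples of 180 CPM in metalloproteinase-only cells, 312 CPM in cells with both and 390 CPM in Hilpda-only cells. For Bnip3, a mitophagy receptor, these medians were 155, 296 and 360 CPM.

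Among these sets of gated cells, the Hilpda-only cells also held the most monocyte transcripts, in 6 of 6 samples. The summed monocyte markers, which include Ly6c2, Ccr2, Vcan, Plac8 and Chil3, were at 1431, 2012 and 3153 CPM in these cells with αPD-1 and at 2210, 2165 and 1601 CPM with αPD-1 + corin. In cells with both they were at 366, 835 and 807 CPM with αPD-1 and at 1304, 749 and 654 CPM with αPD-1 + corin. Metalloproteinase-only cells had 475 to 1415 CPM. The gated class as a whole had a lower sum than the other macrophages in 6 of 6 samples. Cd36, a scavenger receptor that takes up lipids, showed the opposite order at its lower end. It was at 437, 405, 382, 205, 160 and 272 CPM in the Hilpda-only cells of the 6 samples and at 338 to 785 CPM in the other sets, each above the Hilpda-only value of its sample.

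Chemokine transcripts were at their highest level in Hilpda-only cells in each of the 6 samples. The summed chemokine list was at 17950, 13657 and 22588 CPM in Hilpda-only cells with αPD-1 and at 23150, 27351 and 13001 CPM with αPD-1 + corin. In metalloproteinase-only cells it was at 6313, 4819 and 7391 CPM with αPD-1 and at 14790, 16712 and 11884 CPM with αPD-1 + corin. Cxcl2, a neutrophil attractant, had medians over samples of 1406 CPM in metalloproteinase-only cells, 3506 CPM in cells with both and 7223 CPM in Hilpda-only cells. Metalloproteinase-only cells were few, with 12 to 57 per sample, so values of single genes in them rest on few molecules.

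**Figure D3:**
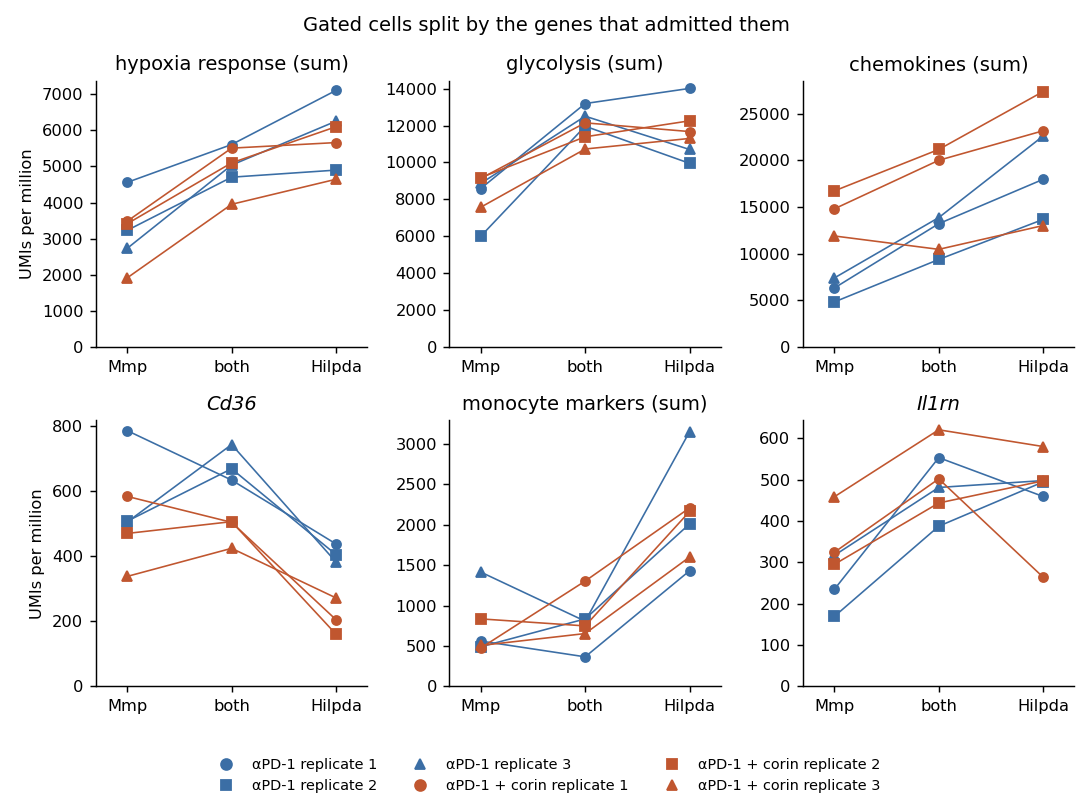
Levels in CPM (linear scale from 0) in gated macrophages split into cells with at least 3 Mmp12 and Mmp13 UMIs and no Hilpda (Mmp), with UMIs of both kinds (both) and with at least 3 Hilpda UMIs and no Mmp12 or Mmp13 (Hilpda), with a line per sample. The hypoxia sum increases from left to right in each of the 6 samples, monocyte markers are highest and Cd36 lowest in the Hilpda-only cells in each of the 6 samples, and glycolysis is lowest in the metalloproteinase-only cells of each sample.

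Against other macrophages, the gated cells stood out by a subunit of activin, an enzyme that makes nitric oxide and several genes known from hypoxia. The cells were chosen by their own UMIs, so the differences are a description with no test, given as the median over 6 samples of the log2 ratio of the levels with 10 CPM added. Of 7013 genes in the treatment test, 670 were higher in the gated class in 6 of 6 samples (9.55%) and 1758 lower (25.1%). With at least 50 CPM in the higher class, the 12 genes with the highest ratios were Inhba, Nos2, Ndrg1, Sdc1, Il7r, Vegfa, Cxcl3, Arg1, Ero1l, Gpnmb, Il1rn and Bnip3, from 2.40 for Inhba to 1.77 for Bnip3.

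Inhba, which encodes the activin A subunit, was at 140, 83.7 and 124 CPM with αPD-1 and at 79.4, 124 and 132 CPM with αPD-1 + corin, against 6.99 to 41.1 CPM in other macrophages. Nos2, the inducible nitric oxide synthase, was at 255, 189 and 83.3 CPM with αPD-1 and at 82.6, 175 and 737 CPM with αPD-1 + corin. Its highest value was in αPD-1 + corin replicate 3, where other macrophages were also highest at 187 CPM. Arg1, arginase 1, which uses the same substrate as Nos2, was at 2546, 1229 and 1497 CPM with αPD-1 and at 2630, 1268 and 649 CPM with αPD-1 + corin. The samples with most Arg1 and most Nos2 thus differed.

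Vegfa was at 397, 285 and 274 CPM in gated macrophages with αPD-1 and at 333, 315 and 310 CPM with αPD-1 + corin, against 52.7 to 104 CPM in other macrophages. Il1rn, the interleukin 1 receptor antagonist, was at 476, 413 and 451 CPM with αPD-1 and at 387, 443 and 581 CPM with αPD-1 + corin, against 108 to 189 CPM. Il7r, the interleukin 7 receptor chain best known from lymphocytes, was at 251, 155 and 248 CPM with αPD-1 and at 176, 190 and 259 CPM with αPD-1 + corin, against 33.7 to 65.4 CPM. The T cell genes Cd3d, Cd3e and Cd3g were at 0 in these cells by the rule, and the other T cell markers measured summed to 0 to 5.36 CPM. Gpnmb, a glycoprotein of lipid-laden macrophages, was at 476, 349 and 699 CPM with αPD-1 and at 464, 482 and 1202 CPM with αPD-1 + corin. For Sdc1 (syndecan 1) the gated level was 49.9 to 77.2 CPM, and for Ero1l, an oxidase of the endoplasmic reticulum that responds to hypoxia, it was 322 to 561 CPM.

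The 12 genes with the lowest ratios included Gm9733, Slc9a9, Clec4a3, Pou2f2, Tmem176b, Itga4, Nlrp1b, Frmd4b, Fgd2, Ighm and Slc8a1, with ratios from -1.58 for Gm9733 to -1.21 for Slc8a1. Itga4, the α4 integrin chain, was at 38.9 to 81.1 CPM in gated and 85.8 to 184 CPM in other macrophages. Slc8a1, a sodium-calcium exchanger, was at 104 to 221 CPM in gated and 168 to 483 CPM in other macrophages. Ighm, the heavy chain of IgM, was at 12.6 to 30.0 CPM in gated and 38.3 to 83.8 CPM in other macrophages, and B cell genes were at 0 in both classes by the rule.

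The hypoxia list had 23 of 24 members past the low-count filter, and Stc2 was not. The level of 20 of these 23 was higher in the gated class in 6 of 6 samples, of 1 it was lower (Pfkfb4), and Hif1a and Car9 varied. The median log2 ratio was 0.986, against -0.132 over all 7013 genes. Slc2a1, the glucose transporter GLUT1, was at 850, 588 and 481 CPM with αPD-1 and at 513, 559 and 372 CPM with αPD-1 + corin. Plin2, a coat protein of lipid droplets, was at 1040, 771 and 875 CPM with αPD-1 and at 885, 859 and 674 CPM with αPD-1 + corin. Hif1a itself, whose product is known to be controlled mainly at the protein level, had a median ratio of 0.24.

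Glycolysis genes followed the hypoxia list. Of 15 members tested of 16, 14 were higher in the gated class in 6 of 6 samples and 0 were lower, with a median log2 ratio of 0.939. Pfkm, the muscle form of phosphofructokinase, was the member under the filter. The summed list was at 12718, 10416 and 11347 CPM with αPD-1 and at 11655, 11410 and 10564 CPM with αPD-1 + corin, against 5011 to 7498 CPM in other macrophages. Gapdh was at 1911, 1546 and 1696 CPM with αPD-1 and at 1695, 1498 and 1548 CPM with αPD-1 + corin. The log2 ratio of the sums ranged from 0.64 in αPD-1 + corin replicate 1 to 1.34 in αPD-1 replicate 1.

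Lists of lipid handling, iron and proteolysis also leaned to the gated class. Of the lipid and Trem2 list, 13 of 18 members were higher in 6 of 6 samples and 2 lower (Apoe and Tyrobp), with a median log2 ratio of 0.679. Lgals3 (galectin 3) was at 5743, 4366 and 6459 CPM with αPD-1 and at 4677, 4603 and 5516 CPM with αPD-1 + corin. Of heme, iron and oxidative stress genes, 9 of 15 tested were higher and 0 lower. Fth1, the ferritin heavy chain, was the most abundant of them at 15240 to 24611 CPM. Among metalloproteinases, inhibitors and cathepsins without Mmp12 and Mmp13, 7 of 17 tested members were higher in 6 of 6 samples (Adam8, Plau, Plaur, Ctsk, Ctsl, Ctsb and Ctsd) and 1 lower (Adam9). Mmp14, the membrane-bound collagenase, was at 119, 96.2 and 120 CPM with αPD-1 and at 156, 135 and 154 CPM with αPD-1 + corin and was higher in the gated class in 5 of 6 samples.

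Further lists were mostly not higher in the gated class, and their counts are to be read against 9.55% of all genes higher and 25.1% lower. Osteoclast-like fusion genes had 2 of 4 tested members higher (Ctsk and Atp6v0d2), while Calcr was at 0 in each gated sample. Interferon-stimulated genes had 2 of 22 higher and 8 lower, MHC class II genes 0 of 10 higher and 3 lower, and cell cycle genes 0 of 14 higher and 5 lower. Monocyte markers were lower in the gated class for 6 of 6 members in 6 of 6 samples, with a median log2 ratio of -0.796. The summed monocyte markers were at 709 to 1592 CPM in gated and 1944 to 3209 CPM in other macrophages. Genes of the CoREST complex, the target of corin, had 0 of 8 tested members higher and 1 lower, and Kdm1a, which encodes LSD1, was at 39.6 to 62.1 CPM in gated macrophages.

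Lists of secreted and regulatory genes were mixed. Of chemokines, 8 of 15 tested were higher in the gated class in 6 of 6 samples and 2 lower, and Cxcl2 was at 4368, 2596 and 3729 CPM with αPD-1 and at 7687, 8837 and 2932 CPM with αPD-1 + corin. Of inflammatory cytokines and their regulators, 8 of 13 tested were higher and 0 lower, and Il1b, interleukin 1β, was at 495, 214 and 378 CPM with αPD-1 and at 555, 1083 and 328 CPM with αPD-1 + corin. Nfkbia, an inhibitor of NF-κB, was at 1259 to 1998 CPM. The treatment groups overlapped for these 3 genes. Of arginine and alternative activation genes, 6 of 13 tested were higher and 2 lower, and the lower ones included the mannose receptor Mrc1, at 115 to 518 CPM in gated and 227 to 869 CPM in other macrophages.

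Lysosome and phagocytosis genes had 10 of 18 members higher and 2 lower, with Ctsb at 2954 to 3840 CPM in gated and 1821 to 3059 CPM in other macrophages. Checkpoint ligands had 2 of 9 tested higher and 2 lower. Cd274, which encodes the PD-1 ligand PD-L1, was higher in the gated class in 6 of 6 samples, at 327, 394 and 211 CPM with αPD-1 and at 195, 341 and 582 CPM with αPD-1 + corin, against 94.3 to 351 CPM in other macrophages. Sirpa, an inhibitory receptor of phagocytes, was at 305 to 444 CPM in gated and 398 to 502 CPM in other macrophages. MHC class I genes had 1 of 12 higher (B2m, at 3764 to 6192 CPM) and 5 lower, and dissociation stress genes 2 of 16 higher and 2 lower. The αPD-1 and αPD-1 + corin values overlapped for Cd274, Sirpa and B2m.

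**Figure D4:**
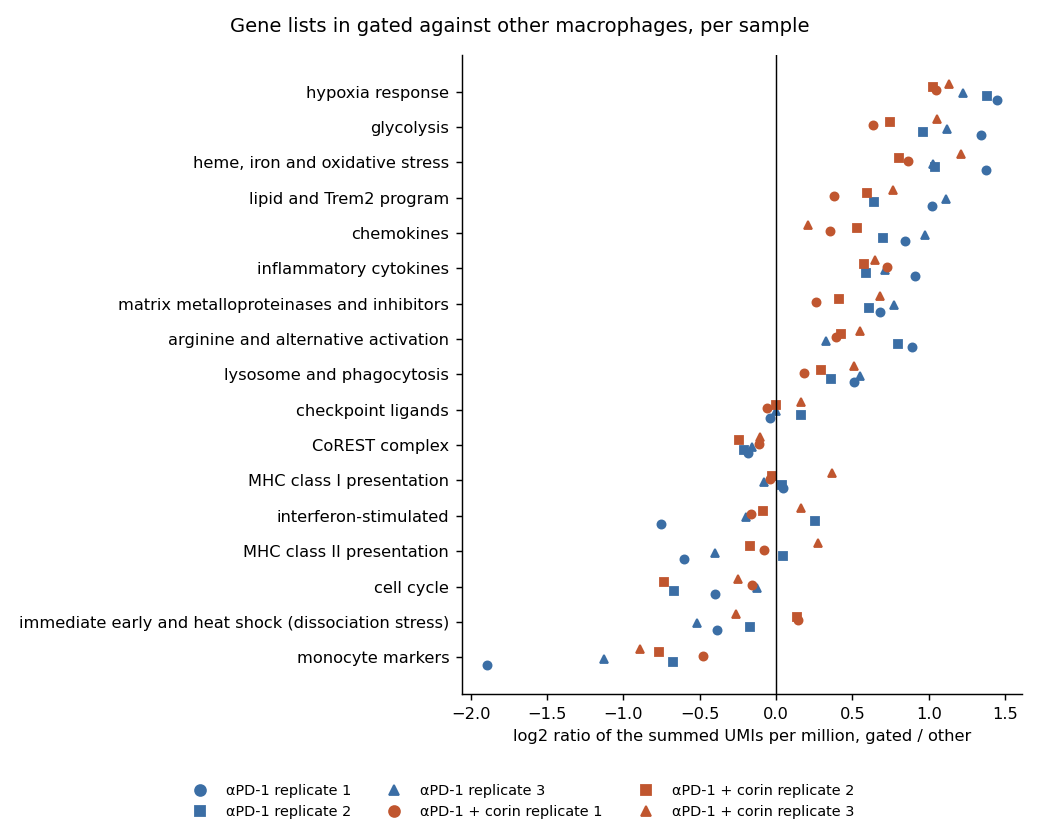
Log2 ratio of the summed CPM of each gene list in gated against other macrophages, 1 point per sample (blue for αPD-1, orange for αPD-1 + corin, shifted vertically for legibility). Hypoxia (1.03 to 1.45), glycolysis and heme and iron lists lie to the right of 0 in each of the 6 samples, monocyte markers (-1.89 to -0.48) to the left, and interferon and MHC class II lists on both sides.

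Transcripts of other cell types moved with the treatment in the gated class. The summed neutrophil markers were at 108, 48.1 and 40.6 CPM with αPD-1 and at 3946, 6674 and 103 CPM with αPD-1 + corin, so replicates 1 and 2 of the latter stood apart and replicate 3 did not. Other macrophages showed the same split, with 71.1 to 253 CPM against 2286, 6274 and 312 CPM. Melanoma markers summed to 49.2, 130.0 and 122 CPM with αPD-1 and to 319, 311 and 441 CPM with αPD-1 + corin. Fibroblast markers were at 0 in the 3 αPD-1 samples and at 1470, 128 and 392 CPM with αPD-1 + corin. T cell markers summed to 0 to 5.36 CPM and B cell markers to 0 to 2.68 CPM. Macrophage markers summed to 5711 to 8796 CPM in gated and 7151 to 11792 CPM in other macrophages. Leaving out the barcodes that Scrublet scored as doublets left all gated cells of the αPD-1 samples and 435, 210 and 153 of the αPD-1 + corin samples. The part of the neutrophil, melanoma and fibroblast transcripts in the results below was not tested beyond the settings given.

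In gated macrophages, 1 of 7013 genes tested was higher with αPD-1 + corin (0.0143%) and 0 were lower (0.0%) at an adjusted p under 0.05 (edgeR quasi-likelihood test of summed UMIs). At an unadjusted p under 0.05 there were 319 higher (4.55%) and 256 lower (3.65%), and DESeq2 called 37 higher and 2 lower. The gene called was Dct, a melanin synthesis enzyme of melanocytes, at 14.3, 21.4 and 38.6 CPM with αPD-1 and 122, 118 and 174 CPM with αPD-1 + corin. Its log2 fold change was 2.57 (edgeR, adjusted p = 0.0374), and its level in gated macrophages was 3.81% of that in melanoma cells of these samples, so it is counted with the melanoma markers. For Dct the log2 fold change was 0.10 with no upper limit on genes, 1.11 with at least 6 UMIs of the rule genes and 1.23 without Scrublet doublets, and it did not pass in these settings.

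The fit depended on αPD-1 + corin replicate 3. Without that sample, 104 of 6826 genes were higher (1.52%) and 11 lower (0.161%). Their levels were looked up in T, B and plasma cells, neutrophils, melanoma cells, fibroblasts and endothelial cells. Among these lineages, which do not include macrophages, 74 of the 104 had their highest level in neutrophils. In gated macrophages, 15 of the 104 were below 5% of the level in their highest lineage. Neutrophils were the only myeloid cells among these lineages, and the share over all genes was not counted. When barcodes with at least 2 UMIs of melanoma or neutrophil markers were also left out, a setting added after seeing the data, 2 of 6629 genes were higher (0.0302%) and 0 lower. These were Ifitm1, an interferon-induced membrane protein whose level among the other lineages of these samples was highest in neutrophils, and Thbs2, a matrix glycoprotein highest in fibroblasts. Their levels in gated macrophages with αPD-1 + corin were 48.4% and 4.61% of those lineages' levels. Over all gated macrophages Ifitm1 was at 74.5, 90.8 and 36.6 CPM with αPD-1 and at 459, 502 and 133 CPM with αPD-1 + corin. Thbs2 was at 0 CPM in the αPD-1 samples and at 37.0, 28.0 and 1.05 CPM with αPD-1 + corin.

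Of the 23 hypoxia genes tested, edgeR called 0 for the treatment at the adjusted threshold and 0 at an unadjusted p under 0.05, against the shares of 4.55% and 3.65% over all genes. Ndrg1 had a log2 fold change of 0.12 (adjusted p = 0.951 by edgeR), Hmox1 of -0.46 (adjusted p = 0.839) and Spp1 of -0.28 (adjusted p = 0.930). The median over the hypoxia list was 0.055, against 0.003 over all genes, and in other macrophages it was 0.343. The rule bounded the sum of Hilpda, a hypoxia gene, and the metalloproteinases from below in gated and from above in other macrophages. The part of these bounds in the hypoxia values was not tested. Among glycolysis genes 1 of 15 passed the unadjusted threshold, and their median was -0.005 in gated and 0.446 in other macrophages. That monocarboxylate exporter, Slc16a3, was at 170, 130.0 and 177 CPM with αPD-1 and at 242, 233 and 193 CPM with αPD-1 + corin.

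Several other groups contained genes whose samples did not overlap, although those given here did not pass adjustment in the edgeR fit. H2-Ab1, Apoe, Nlrp3, Egr1, Hspa1a and Cyp4f18 passed it with DESeq2. Over all genes tested, 327 had higher levels with no overlap with αPD-1 + corin (4.66%) and 684 lower (9.75%). These genes were picked after their values were seen. H2-Ab1, a chain of MHC class II, was at 741, 1428 and 1032 CPM with αPD-1 and at 1643, 2175 and 2250 CPM with αPD-1 + corin (log2 fold change 1.00, adjusted p = 0.212 by edgeR). Of the 10 MHC class II genes tested, 4 had an unadjusted p under 0.05, each with higher values with αPD-1 + corin, against 4.55% of all genes. The median log2 fold change of the list was 0.46, and 0.27 in other macrophages. Apoe, the apolipoprotein of lipid-laden macrophages, was at 1178, 1052 and 1442 CPM with αPD-1 and at 2723, 1726 and 2269 CPM with αPD-1 + corin (0.93, adjusted p = 0.125 by edgeR). The other macrophages did not overlap for Apoe either, at 1705, 1766 and 1847 CPM with αPD-1 and at 3816, 2495 and 2852 CPM with αPD-1 + corin. Nlrp3, the inflammasome sensor, was at 133, 73.0 and 99.5 CPM with αPD-1 and at 210, 246 and 172 CPM with αPD-1 + corin (1.09, adjusted p = 0.181). Without αPD-1 + corin replicate 3 and barcodes with melanoma or neutrophil UMIs, the log2 fold change of Nlrp3 was 0.48.

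Stress genes went both ways. Egr1, an immediate early transcription factor, was at 85.6, 151 and 122 CPM with αPD-1 and at 452, 602 and 244 CPM with αPD-1 + corin (log2 fold change 1.92, adjusted p = 0.090 by edgeR). Hspa1a, an inducible HSP70 chaperone, was at 626, 646 and 603 CPM with αPD-1 and at 198, 296 and 271 CPM with αPD-1 + corin (-1.23, adjusted p = 0.090). Both belong to the list of genes known to respond to tissue dissociation, of whose 16 members 6 had higher and 3 lower values at an unadjusted p under 0.05, against 4.55% and 3.65% of all genes. Cyp4f18, a leukotriene-metabolizing cytochrome, was at 31.7, 55.2 and 40.6 CPM with αPD-1 and at 116, 96.2 and 104 CPM with αPD-1 + corin (1.38, adjusted p = 0.090). Without αPD-1 + corin replicate 3 and barcodes with melanoma or neutrophil UMIs, the log2 fold change of Cyp4f18 was 0.69.

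The treatment difference was then compared between the gated and the other macrophages of the same samples, with the sample as a term (edgeR quasi-likelihood test of the interaction). Of 10358 genes, 12 had a lower difference in the gated class (0.116%), the rule gene Mmp12 among them, and 1 a higher difference (0.00965%). At an unadjusted p under 0.05 there were 432 lower (4.17%) and 471 higher (4.55%). The balance of directions did not hold under some other settings. There were 9 higher and 4 lower with at least 6 UMIs of the rule genes, 14 and 13 after thinning, and 55 and 51 with no filter. Without αPD-1 replicate 2 there were 27 higher and 30 lower, and without αPD-1 + corin replicate 3, 17 and 20. Most were lower with DESeq2 (3 higher and 20 lower), RLE size factors (1 and 13) and Scrublet doublets left out (2 and 15). The same held against other macrophages with 0 UMIs of the rule genes (2 and 12). It also held without αPD-1 replicate 3 (1 and 8) or αPD-1 replicate 1 (0 and 3). The other macrophages alone had 3 genes higher (0.0275%) and 2 lower (0.0183%) of 10911. The 12 genes were Cxcl3, F7, Rhoc, Arg1, Mmp12, Pdpn, Pf4, Spp1, Ccl9, Clec4n, Cxcl2 and Ccl2, and the other gene was Dusp2. Mmp12 is a rule gene whose UMIs are bounded below in the gated class and above in the other class, so its value is only listed. Genes that move together with the rule genes were measured under the same bounds, and the part of those bounds in the results was not tested.

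In each of these genes except Dusp2 the other macrophages had the higher mean with αPD-1 + corin. Cxcl3, a ligand of the neutrophil receptor CXCR2, was at 33.5, 21.6 and 25.7 CPM in other macrophages with αPD-1 and at 197, 396 and 22.7 CPM with αPD-1 + corin. In gated macrophages it was at 236, 125 and 294 CPM with αPD-1 and at 661, 799 and 31.6 CPM with αPD-1 + corin. The interaction was -1.80 ± 0.257 (SE, log2, adjusted p = 0.00548 by edgeR). Cells with a Cxcl3 UMI after thinning were 8.69%, 16.8% and 1.20% of other macrophages with αPD-1 + corin, but also 11.5%, 19.3% and 1.78% of T cells, so the level in other macrophages was not above the background there. With αPD-1 the shares were 1.05% to 1.61% of other macrophages and 0.184% to 0.382% of T cells. The αPD-1 + corin samples were split, with replicate 3 within the αPD-1 range in other macrophages and below it in gated macrophages.

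Arg1 was at 361, 179 and 353 CPM in other macrophages with αPD-1 and at 1278, 540 and 195 CPM with αPD-1 + corin. The log2 fold change was 1.28 in other macrophages and -0.18 in gated macrophages, where the groups overlapped widely, and the interaction was -1.31 ± 0.210 (SE, adjusted p = 0.0101 by edgeR). Arg1 was detected in 39.2%, 21.2% and 9.87% of other macrophages with αPD-1 + corin after thinning and in 6.22%, 2.12% and 0.562% of T cells. Spp1 was at 447, 479 and 666 CPM in other macrophages with αPD-1 and at 1424, 785 and 308 CPM with αPD-1 + corin. Its interaction was -0.98 ± 0.194 (SE, adjusted p = 0.0401 by edgeR).

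F7, coagulation factor VII, was at 64.1 to 79.2 CPM in gated macrophages with αPD-1 and at 46.3 to 78.9 CPM with αPD-1 + corin, and its interaction was -1.52 ± 0.305 (SE, adjusted p = 0.0439 by edgeR). Rhoc, a small GTPase, was at 57.0 to 93.4 CPM with αPD-1 and at 37.9 to 109 CPM with αPD-1 + corin, and its interaction was -1.47 ± 0.241 (SE, adjusted p = 0.0101 by edgeR). Dusp2, a phosphatase of MAP kinases, was at 42.8, 55.2 and 63.0 CPM in gated macrophages with αPD-1 and at 69.2, 61.4 and 132 CPM with αPD-1 + corin. In other macrophages it was at 171, 187 and 148 CPM with αPD-1 and at 76.6, 95.6 and 187 CPM with αPD-1 + corin, and the interaction was 1.18 ± 0.218 (SE, adjusted p = 0.0271 by edgeR). Dusp2 was thus lower in gated than in other macrophages in each of the 6 samples, by less in the αPD-1 + corin samples.

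The remaining 6 genes, named because the count is small and chosen after their values were seen, had interactions of -1.08 (Pdpn, podoplanin), -1.01 (Pf4, platelet factor 4), -0.94 (Ccl9), -0.93 (Clec4n, the lectin Dectin-2), -0.85 (Cxcl2) and -0.79 (Ccl2, the main monocyte attractant). Cxcl2 was detected after thinning in 60.6%, 59.2% and 36.8% of other macrophages with αPD-1 + corin and in 33.0%, 39.6% and 7.78% of T cells. The 4 chemokines Cxcl3, Ccl9, Cxcl2 and Ccl2 belong to the fixed chemokine list of 17 genes, of which 15 passed the filter of the treatment test. Over all 10358 genes of the interaction test the shares were 0.116% lower and 0.00965% higher. The 12 genes outside the rule kept their sign in each of 13 alternative fits and were past the threshold in 6 to 11 of them. Without αPD-1 + corin replicate 2, 0 genes passed, and without αPD-1 + corin replicate 1, 1 gene passed. Without αPD-1 replicate 1, 3 genes passed, without αPD-1 replicate 2, 57, and without αPD-1 + corin replicate 3, 37. Leaving out αPD-1 replicate 3 gave 9.

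**Figure D5:**
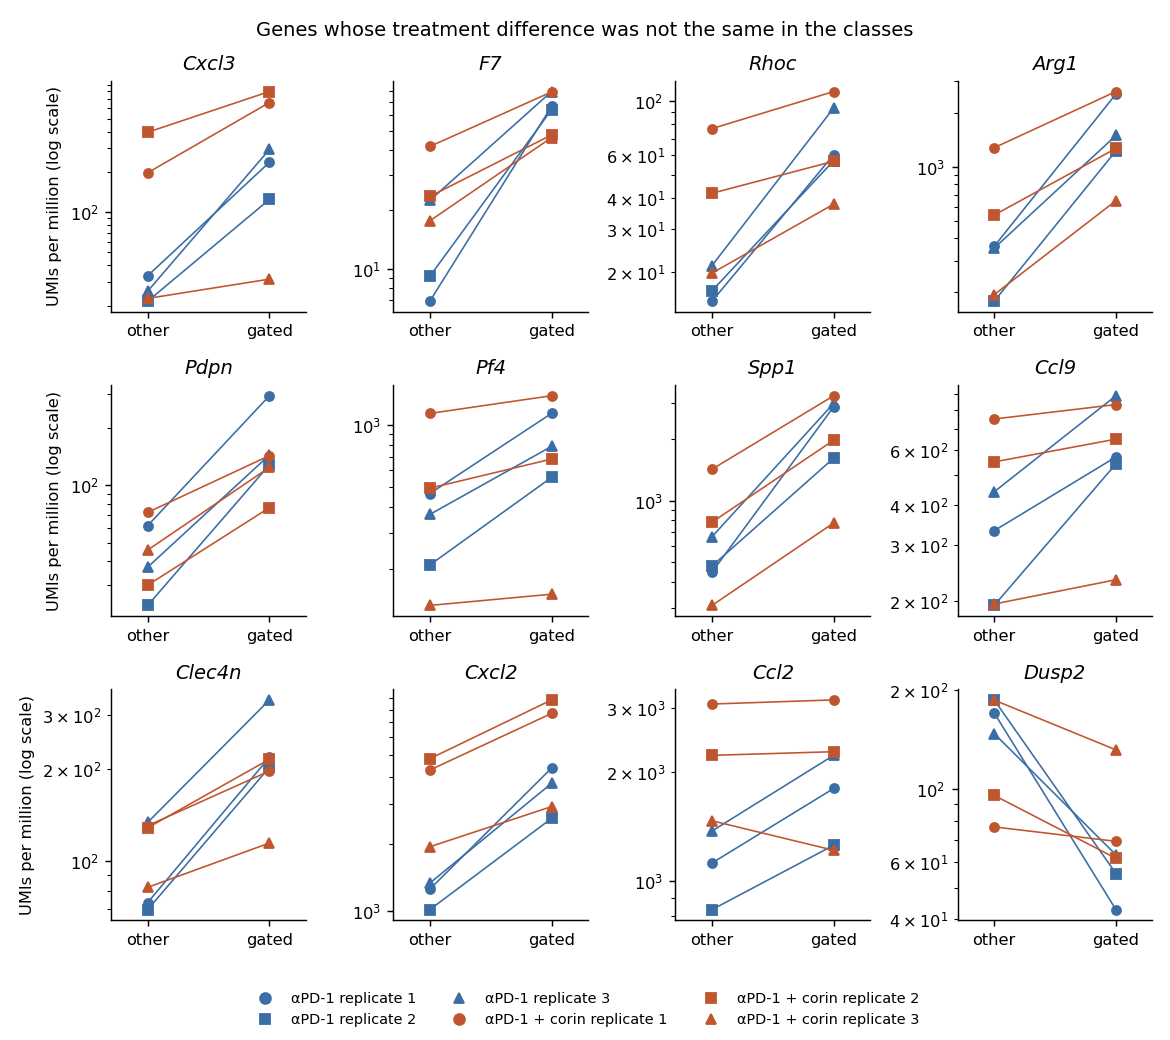
Levels in CPM (log scale) in other and gated macrophages, with a line per sample (blue for αPD-1, orange for αPD-1 + corin), of the 12 genes other than Mmp12 that passed the interaction test. Lines of the αPD-1 samples are steeper upward than those of the αPD-1 + corin samples for 11 genes, and for Dusp2 they are steeper downward (interaction 1.18).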

How the data were processed

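CD45+ cells of 6 samples were measured by single-cell RNA-Seq (Chromium GEM-X 5' chemistry, with 23000 cells loaded). The authors aligned the reads to GRCm39 and counted UMIs with Cell Ranger 8.0, per the labels, and deposited raw UMI counts of 32285 genes per barcode. The study's own analysis with Seurat 5.0.11 and its doublet calls were not used here. Doublets were not removed, and leaving out barcodes that Scrublet (scanpy 1.11.5) scored highest was an alternative. Depth was 492371 to 1863972 summed UMIs in gated macrophages per sample, which limits genes below a few CPM.

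For each sample and class the UMIs of its cells were added, and these sums entered edgeR 4.0.16 (quasi-likelihood test, TMM, filterByExpr, Benjamini-Hochberg adjustment over all genes tested, threshold 0.05). Shares were compared by exact permutation over samples. On simulated counts with 200 genes changed 4-fold, the treatment test found 192 with 9 false calls among 6827 genes. With 200 genes changed in the same way, the interaction test found 173 with 6 false calls among 7013 genes. Whether the simulated counts vary as much as the real samples was not tested. The numbers found are therefore not a detection rate for changes of this size in these data. Other settings were DESeq2 1.42.0, RLE size factors, no filter, other UMI limits, thinning, equal cell numbers, the replicate number as a block and each sample left out.

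The members, the gene lists and the tests were chosen with earlier results of these data known. Genes named are the 6 markers, those called by a test, the members of each list with the highest level, the 12 highest and 12 lowest gated-to-other ratios with at least 50 CPM, and up to 5 interaction genes each way, and others are said to be chosen after their values were seen. Some genes that this rule or a list holds are not reported here by name, although counts and sums include them. Promoter sequences come from RefSeq tables of GRCm38.p6, a build other than that of the counts, so no count was placed by coordinate.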

Additional observations from a re-analysis of the deposited data

Results flagged for a closer look

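The treatment difference in gated macrophages was not the same as in the other C1q-positive macrophages for 12 genes outside the rule, by the edgeR interaction test at an adjusted p under 0.05, and that test of the difference is what set them aside for a closer look. On the log2 scale the signed difference was lower in gated macrophages for Cxcl3 (-1.80), F7 (-1.52), Rhoc (-1.47), Arg1 (-1.31), Pdpn (-1.08), Pf4 (-1.01), Spp1 (-0.98), Ccl9 (-0.94), Clec4n (-0.93), Cxcl2 (-0.85) and Ccl2 (-0.79), and higher for Dusp2 (1.18). The log2 fold change was positive in both classes for Cxcl3, Rhoc, Cxcl2 and Ccl2. For F7, Arg1, Pdpn, Pf4, Spp1, Ccl9 and Clec4n it was negative in gated and positive in other macrophages. It was -0.68 and 0.43 for Pdpn, and -0.45 and 0.42 for Clec4n. The bounds of the rule move with these values, since gated cells hold at least 3 and the other macrophages at most 2 UMIs of the rule genes, and their part was not tested. Against other macrophages with 0 UMIs of the rule genes, 10 of the 13 genes called, with Mmp12 among the 13, were again past the threshold. With each cell thinned to 2000 UMIs, 4 of them were.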

How the results depend on the processing

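The difference in the share of gated cells among C1q-positive macrophages, 0.261 percentage points, was negative with at least 6 UMIs of the rule genes (-0.915), with Mmp12 and Mmp13 alone (-0.993), without barcodes holding melanoma or neutrophil UMIs (-0.918) and after thinning to 2000 UMIs (-0.176), and ranged from -1.02 to 1.65 with a sample left out. The share among all barcodes past the filters was higher with corin under each setting run (0.877 to 3.53 percentage points), with overlap between groups in 3 settings.

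Genes higher with corin (1) numbered 37 with DESeq2, 293 with no filter, 22 with the replicate number as a block, 5 with Mmp12 and Mmp13 alone, 3 with at least 6 UMIs, and 0 with no upper limit on genes, at most 5% mitochondrial UMIs, Scrublet doublets left out, 83 cells per sample or genes below 5% of another lineage left out. With a sample left out they numbered 0 to 104, and without αPD-1 + corin replicate 3 and the barcodes with melanoma or neutrophil UMIs, 2. Genes lower (0) numbered 2 with DESeq2, 31 with no filter, 1 with Mmp12 and Mmp13 alone and 0 to 11 with a sample left out. Interaction genes (13, with the rule gene Mmp12 among them) numbered 23 with DESeq2, 106 with no filter, 27 after thinning and 0 to 57 with a sample left out. The causes were not tested. Over all genes tested, samples with the same replicate number did not deviate together (r = 0.056, -0.041 and -0.124, against -0.208 to 0.188 for unlike numbers). Whether samples of the same number shared a batch that affected some genes was not tested. Under the block 22 genes were higher and 0 lower. With 83 to 456 gated cells per sample, genes at a few CPM rest on few molecules.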
